A study of Arabidopsis thaliana with 24 samples.

Results

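A set of 5 genes encoding TIR-domain proteins without leucine-rich repeats, AT1G66090, AT3G04210, AT1G72900, AT1G72920 and AT1G72940, was followed across 8 groups of Arabidopsis plants. They were chosen from the loci of the TIR immune receptor family after signals of several of them had been seen to be higher with DCA or INA than with mock at 48 h in Col-0. Each is the 1 annotated gene of 1 probe set, so 5 of 22746 probe sets without controls are described. Transcript levels were measured on 24 Affymetrix ATH1 arrays, with 3 biological replicates in each group, per the labels. All plants were 2 weeks old, grown on soil under 14 h of light, and sprayed, and all aerial parts were harvested. At 6 d the groups were wild-type Col-0 that had received DCA, INA or mock. DCA is 3,5-dichloroanthranilic acid and INA is 2,6-dichloroisonicotinic acid, both synthetic elicitors of defence given at 100 µM. At 48 h they were npr1-3 given DCA or mock, and Col-0 given DCA, INA or mock. Mock was water with 0.002% DMSO, and the elicitor sprays held no more of this solvent. The allele npr1-3 is a mutation of NPR1, a coactivator of salicylic acid responses. Responses of npr1-3 to INA or at 6 d are not analysed here.

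TIR domains (Toll/interleukin-1 receptor) form the front end of a large class of plant immune receptors, where a nucleotide-binding (NB) domain and leucine-rich repeats usually follow. Plant TIR domains can break down NAD+ into small signalling molecules, which are read by the lipase-like protein EDS1 together with PAD4 or SAG101 and the helper receptors of the ADR1 and NRG1 families. Shorter loci of the family encode a TIR domain alone or a TIR and an NB domain, and lack the repeats that sense pathogen proteins in the full-length receptors. AT1G66090 and AT3G04210 are TIR-NB loci. The other 3 belong to a run of neighbouring TIR loci on chromosome 1, where RefSeq's TAIR10.1 annotation lists them in the order AT1G72900, AT1G72910, AT1G72920, AT1G72930 (symbol TIR), AT1G72940 and AT1G72950. Coordinates are left out, since no source used here names the genome build of the array's annotation. Domain content was not checked because no protein sequences were used here. AT1G72910 and AT1G72930 are not listed as the 1 gene of a probe set in the annotation used here, and a share of signal from similar neighbours in the 3 probe sets of this run was not tested.

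All 24 arrays had a trimmed mean signal of 500.1 and medians between 115.1 and 148.4. With 3 arrays a group precision is limited: the reach to either side of the 95% interval of a log2 change had a median of 0.59 over all probe sets. Of the markers of the labelled tissue, the leaf gene RCA, encoding Rubisco activase, had signals from 17433 to 37164. The other measured genes of the leaf list were lower, with psbA from 3081 to 16641 and rbcL from 387.8 to 1921. The root hair expansin genes EXPA7 and EXPA18 stayed at 79.8 and 105.5 or below, while PYK10, a beta-glucosidase gene used as a root marker, ran from 2346 to 8896, and its part in any result was not tested. In bulk samples of shoots, fewer cells of a type and less RNA per cell cannot be told apart. NPR1 is not listed in the annotation used here, so the genotype was not checked.

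In Col-0 at 48 h, the comparison from which the genes were chosen, all 5 genes had every DCA array above every mock array. These values are a description and carry no test. Signals of AT3G04210 were 3441, 3559 and 3238 with DCA, against 145.2, 958.8 and 489.6 with mock. It had both the largest difference of the 5 and the widest mock spread, with a log2 change of 3.06 ± 0.76 (SE), or 8.35-fold. Without the replicate 1 arrays of all groups, an alternative added after the data had been seen, it was 2.31, or 4.95-fold. AT1G66090 had 1058, 955.3 and 909.9 with DCA, against 241.2, 327.0 and 192.3 with mock, a log2 change of 1.97 ± 0.35. The DCA arrays of both TIR-NB genes lay within a narrow band, with the highest over the lowest at 1.1 for AT3G04210 and 1.16 for AT1G66090.

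The 3 genes of the chromosome 1 run had smaller differences. Signals of AT1G72900 were 828.1, 701.1 and 612.5 with DCA, against 247.0, 169.1 and 224.6 with mock, a log2 change of 1.75 ± 0.40. AT1G72940 had 1314, 1344 and 1327 with DCA, against 584.0, 672.2 and 485.2 with mock (1.21 ± 0.28). Its 3 DCA arrays differed by a factor of 1.02 at most. AT1G72920 had 445.3, 424.0 and 346.7 with DCA, against 190.6, 195.1 and 144.6 with mock (1.2 ± 0.54). Of the 5 genes, 4 passed an adjusted p of 0.05 as higher, all but AT1G72920, against 1.98% of the 13648 probe sets tested (0.432% were called lower), and nothing is read from that count because the choice used it. The share of probe sets with every DCA array above every mock array was 15.3%, and 12.8% had every one below.

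INA at 48 h gave positive log2 changes for all 5 genes too, from 0.92 ± 0.28 for AT1G72940 to 1.66 ± 0.76 for AT3G04210, again as a description. The INA and DCA changes share their mock arrays, so both are set side by side only. AT1G72900 had 521.8, 684.3 and 624.1 with INA, all above mock, and a log2 change of 1.52 ± 0.40. It was the 1 gene of the 5 that passed the threshold for INA, where 2.37% of probe sets were called higher. Replicate 1 of INA was the lowest INA array in all 5 genes. The highest INA array over the lowest was 1.31 for AT1G72900 and from 1.91 to 9.28 for the other 4 genes. AT3G04210 had 318.6, 2958 and 2289 with INA, so replicate 1 lay below mock replicates 2 and 3. AT1G66090 had 291.4, 742.0 and 615.3, where replicate 1 lay within the mock range. AT1G72920 had 217.8, 515.8 and 417.8, and AT1G72940 had 773.9, 1476 and 1122, with all 3 INA arrays of both above mock. In all, 3 of the 5 genes had no overlap with mock, against 10.1% of all probe sets with every INA array above mock and 6.15% with every one below. Replicate numbers paired these INA and mock arrays (correlations across probe sets of 0.76, 0.78 and 0.29). For the genes that overlapped, INA over mock within each number was 2.2, 3.09 and 4.67 for AT3G04210. For AT1G66090 it was 1.21, 2.27 and 3.2. The choice used these arrays, so the ratios are a description.

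Between DCA and INA, both 100 µM sprays of dichlorinated aromatic acids with different ring systems, the 5 log2 differences at 48 h were positive. They were 1.40 ± 0.76 for AT3G04210, 0.93 ± 0.35 for AT1G66090, and between 0.16 and 0.29 for the 3 genes of the run. Every DCA array was above every INA array for 2 of the 5, both TIR-NB genes, against 11.2% of all probe sets (12% had every one below), and 0 of the 5 were called, as were 0% of all probe sets (1623 had an unadjusted p under 0.05). These differences leaned on replicate 1. With all replicate 1 arrays left out they were 0.38 for AT3G04210, 0.46 for AT1G66090, 0.00 for AT1G72900, 0.05 for AT1G72940 and -0.28 for AT1G72920.

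**Figure D1:**
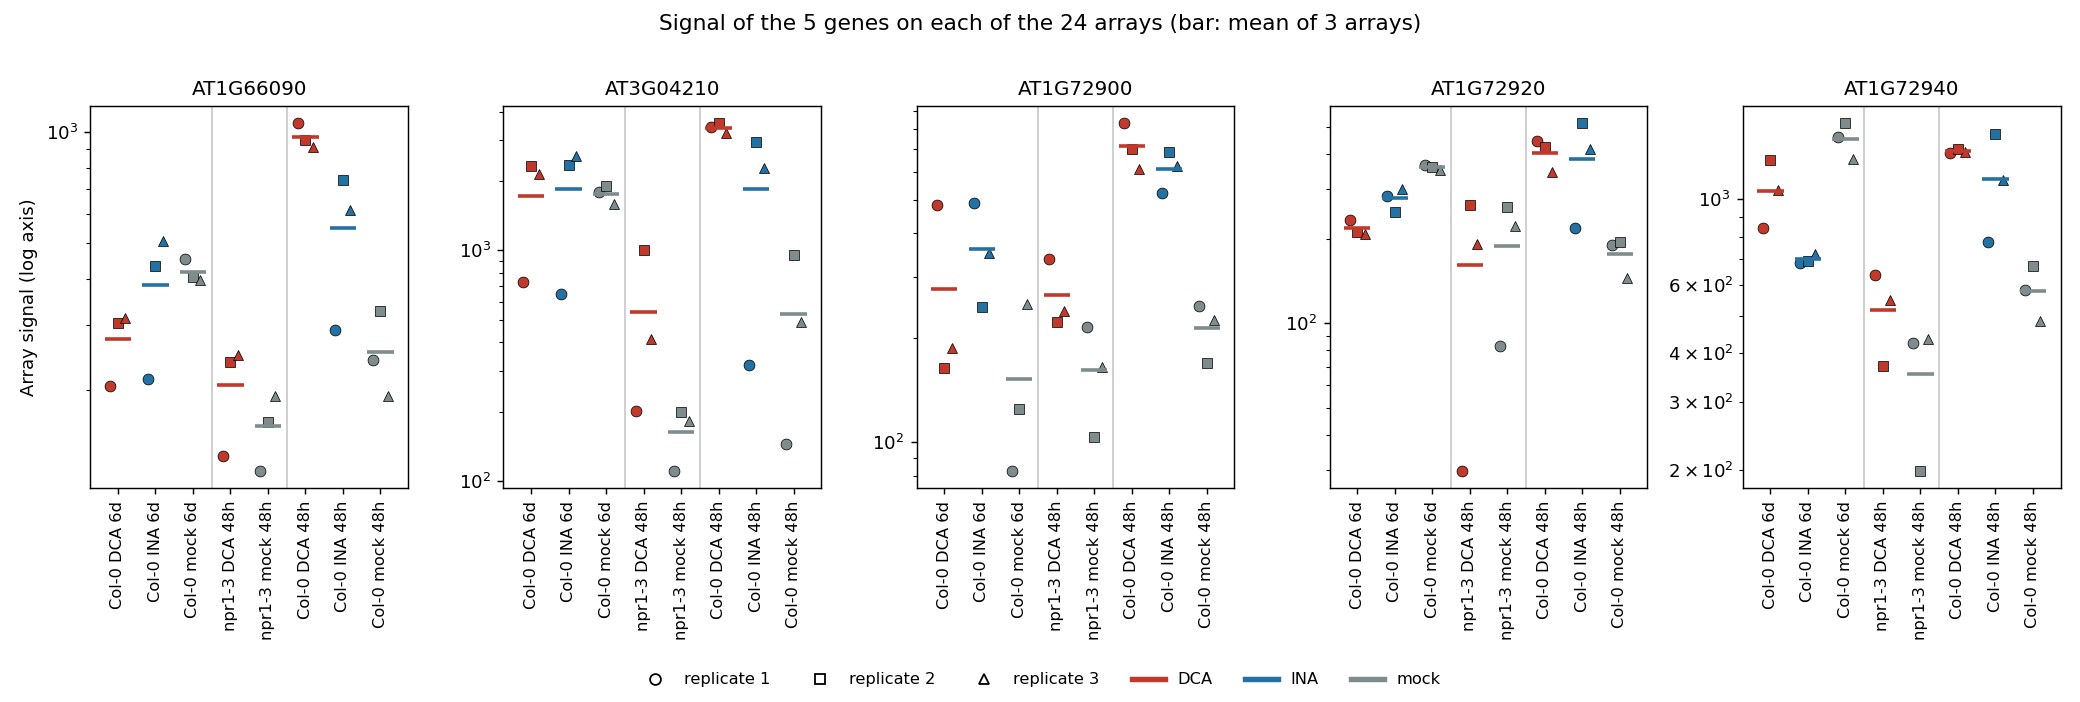
Signal of each gene (log axis) on the 24 arrays, by group, with symbols for the replicate number, colours for the treatment and a bar for the mean of 3 arrays. In Col-0 at 48 h the DCA arrays lie above the mock arrays in all 5 panels, while at 6 d the mock arrays of AT1G72920 and AT1G72940 lie above both treated groups, and replicate 1 of AT3G04210 is far below the others in several groups.

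The response to DCA in npr1-3 was measured on 6 arrays that the choice of genes did not use. None of the 5 genes passed the test there (limma, Benjamini-Hochberg over 13648 probe sets, in which 0.315% were called higher and 0.00733% lower). At an unadjusted p under 0.05, 1 of them passed. The fit had no replicate block, although replicate numbers paired these arrays, as given below. With a block none of the 5 was called either, at limma adjusted p from 0.3 to 0.732. AT3G04210 had signals of 200.3, 1009 and 411.7 with DCA, against 110.5, 199.0 and 181.5 with mock in npr1-3. Its DCA arrays all exceeded its mock arrays, replicate 1 only just, and the log2 change was 1.46 (95% interval -0.13 to 3.05, limma adjusted p 0.687). With the block its standard error was 0.48, against 0.76 without it (limma adjusted p 0.3 with the block). Without the replicate 1 arrays of all groups its change was 1.76 and was called (limma adjusted p 0.0349), while without DCA replicate 2 it was 0.86 (0.706).

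AT1G72900 had 337.7, 221.8 and 239.1 with DCA, against 214.5, 104.0 and 165.3 with mock in npr1-3. All 3 DCA arrays were above the mock arrays, replicate 2 by a small margin, with a log2 change of 0.76 (-0.06 to 1.58, limma adjusted p 0.684). AT1G72940 had 634.9, 369.9 and 547.6, against 425.3, 198.5 and 436.2, and its groups overlapped (0.60, interval 0.02 to 1.18, limma adjusted p 0.603). This was the gene with an unadjusted p under 0.05 (0.0425). AT1G66090 had 132.4, 237.6 and 249.7, against 120.7, 164.3 and 193.1, a log2 change of 0.35 (-0.37 to 1.07, limma adjusted p 0.877). AT1G72920 had 29.7, 263.3 and 191.5, against 82.9, 259.9 and 222.8, and was the 1 gene with a negative change, -0.56 (-1.69 to 0.56, limma adjusted p 0.869). DCA replicate 1 was the lowest of its 24 arrays, and the change was 0.41 without that array but -0.10 without the replicate 1 arrays of all groups. Every DCA array was above every mock array for 2 of the 5 genes, against 6.94% of all probe sets (3.95% were all below), and the median change of the 5 was 0.60, against 0.08 over all probe sets. The upper ends of the intervals, such as 3.05 for AT3G04210, show how large a change these arrays leave possible.

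With DCA at 48 h, all 5 genes were lower in npr1-3 than in Col-0, with no overlap between the 3 arrays of each. The Col-0 DCA arrays had entered the choice, so these differences are described. Replicate numbers did not pair the DCA arrays of both genotypes (correlations across probe sets of -0.07, 0.11 and 0.13). Replicate 1 of AT3G04210 was not low in Col-0 DCA (3441), unlike in npr1-3 DCA (200.3). The part of such replicate differences in the gap between genotypes was not tested. They were -2.97 ± 0.76 for AT3G04210, -2.29 ± 0.35 for AT1G66090, -1.82 ± 0.54 for AT1G72920, -1.44 ± 0.40 for AT1G72900 and -1.40 ± 0.28 for AT1G72940. All 5 passed the threshold as lower, in a comparison where 6.33% of all probe sets were called lower and 6.36% higher. The share of probe sets with every npr1-3 array below every Col-0 array was 19%, and 21.2% had every one above. For AT1G72920 the difference was -0.77 without the replicate 1 arrays. With mock, the differences between npr1-3 and Col-0 were negative as well, from -0.05 ± 0.54 for AT1G72920 to -1.36 ± 0.76 for AT3G04210. Of the 5, 0 were called in mock plants, against 0.0733% of all probe sets called lower, and the arrays of both genotypes overlapped for all but AT1G72940 (425.3, 198.5 and 436.2 in npr1-3, against 584.0, 672.2 and 485.2 in Col-0). Such a position below held for 6.41% of all probe sets and one above for 4.56%. Without the replicate 1 arrays the mock difference of AT1G72920 was 0.52.

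The DCA response in npr1-3 minus that in Col-0 was negative for all 5 genes, at -1.76 ± 0.76 for AT1G72920, -1.63 ± 0.49 for AT1G66090, -1.60 ± 1.08 for AT3G04210, -0.99 ± 0.56 for AT1G72900 and -0.61 ± 0.39 for AT1G72940. None of these was called (0.00733% of probe sets were called, 606 had an unadjusted p under 0.05). They share the choosing arrays and so carry no test. For AT3G04210 the value was -0.55 without the replicate 1 arrays.

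Mock levels of the genes were mostly higher at the later harvest. In 4 of the 5 genes every mock array at 6 d was above every mock array at 48 h, against 18.2% of all probe sets (9.77% had every one below). Mock levels at both times had been noted when the genes were chosen, so they are described. AT3G04210 had 1793, 1909 and 1597 at 6 d in mock, against 145.2, 958.8 and 489.6 at 48 h, a log2 difference of 2.11 ± 0.76 (1.35 without the replicate 1 arrays). AT1G72940 had 1448, 1569 and 1266 at 6 d, against 584.0, 672.2 and 485.2 at 48 h (1.31 ± 0.28), and its mock mean at 6 d, 1428, was above its Col-0 DCA mean at 48 h, 1328. AT1G72920 had 366.3, 361.3 and 352.0 at 6 d, against 190.6, 195.1 and 144.6 (1.04 ± 0.54). Its 3 mock arrays at 6 d differed by a factor of 1.04 at most. AT1G66090 had 453.8, 404.8 and 397.3 at 6 d, against 241.2, 327.0 and 192.3 at 48 h (0.76 ± 0.35). AT1G72900 was the exception, with 82.8, 124.4 and 249.9 at 6 d, against 247.0, 169.1 and 224.6 at 48 h (-0.62 ± 0.40), and its groups overlapped. Of the 5, 0 were called, against 0.183% of all probe sets called higher and 0.0293% lower, and 2081 had an unadjusted p under 0.05.

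At 6 d the log2 change with DCA in Col-0 was negative for 4 of the 5 genes and positive for AT1G72900. None of the 5 passed the test (limma, 0% of probe sets called, 444 with an unadjusted p under 0.05, among them 1 of the 5). AT1G66090 had 205.0, 304.7 and 314.1 with DCA at 6 d, against 453.8, 404.8 and 397.3 with mock, all DCA arrays below all mock arrays. Its log2 change was -0.63 (95% interval -1.35 to 0.09, limma adjusted p 0.93). AT1G72920 had 234.1, 211.8 and 208.5, against 366.3, 361.3 and 352.0, also with no overlap (-0.72, -1.85 to 0.40, limma adjusted p 0.93). The interval is wide beside the tight arrays because the gene's spread was pooled over 8 groups, and its npr1-3 arrays varied most. AT1G72940 had 840.0, 1260 and 1054, against 1448, 1569 and 1266, all below mock (-0.46, -1.03 to 0.12, limma adjusted p 0.93). Every DCA array was thus below every mock array for 3 of the 5 genes, against 7.96% of all probe sets, and 0 of the 5 had every one above, against 7.32%. Mock levels at 6 d had been noted at the choice, so these counts and p-values are not free of it.

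AT3G04210 had 732.7, 2318 and 2137 with DCA at 6 d, against 1793, 1909 and 1597 with mock, where replicate 1 lay below the mock arrays and the other two above them. Its change was -0.20 (-1.78 to 1.39, limma adjusted p 0.98), and 0.34 without DCA replicate 1. AT1G72900 had 481.3, 163.5 and 186.4 with DCA, against 82.8, 124.4 and 249.9 with mock, a log2 change of 0.84 (0.01 to 1.66, limma adjusted p 0.93). Its replicate 1 arrays had a ratio of 5.81, although replicate numbers did not pair these groups (correlations across probe sets of -0.02, 0.08 and 0.09). Without the replicate 1 arrays the change was -0.01.

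With INA at 6 d AT1G72940 had a negative and AT1G72900 a positive change, and neither passed the test in the fit of group means, with no replicate block, to all 24 arrays. AT1G72940 had 684.6, 693.6 and 719.6 with INA, against 1448, 1569 and 1266 with mock. The 3 INA arrays differed by a factor of 1.05 at most and all lay below the mock arrays, with a log2 change of -1.02 (-1.60 to -0.45, limma adjusted p 0.0656). AT1G72900 had 489.0, 245.3 and 349.9 with INA, against 82.8, 124.4 and 249.9 with mock, and these groups overlapped by 1 array (1.34, 0.52 to 2.17, limma adjusted p 0.0933). Both had an unadjusted p under 0.05, at 0.00142 and 0.00279. AT1G72940 was called after quantile normalization (-1.07, limma adjusted p 0.0304) and in a fit to the 6 arrays compared (0.0351), and AT1G72900 was called without mock replicate 3 (1.78, 0.0298). Without the replicate 1 arrays the change of AT1G72900 was 0.73.

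For the other 3 genes the changes with INA at 6 d were smaller than their standard errors. AT1G72920 had 285.1, 249.0 and 302.0 with INA, against 366.3, 361.3 and 352.0 with mock, all below mock with a log2 change of -0.37 (-1.50 to 0.75, limma adjusted p 0.79). AT1G66090 had 214.1, 432.9 and 509.0, against 453.8, 404.8 and 397.3 (-0.21, -0.93 to 0.51, limma adjusted p 0.822). AT3G04210 had 648.6, 2352 and 2562, against 1793, 1909 and 1597 (-0.16, -1.75 to 1.43, limma adjusted p 0.943). In both TIR-NB genes INA replicate 1 was the low array, and without it the changes were 0.17 for AT1G66090 and 0.48 for AT3G04210. Of the 5 genes, 0 were called, against 1.55% of all probe sets called higher and 0.278% lower. Every INA array was below every mock array for 2 of the 5, against 13.2% of all probe sets, and 0 of the 5 had every one above, against 12.8%. The INA values at 6 d rest on the same mock arrays, whose levels had been noted at the choice.

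At 6 d DCA and INA were compared directly for the 5 genes, with p-values adjusted over all 13648 probe sets, and 0 were called, also at an unadjusted p under 0.05. Over all probe sets 0.00733% were called higher and 0.205% lower with DCA. Replicate numbers paired these arrays, and with a replicate block none of the 5 was called either (limma adjusted p from 0.663 to 0.997). AT1G72940 had all 3 DCA arrays (840.0, 1260 and 1054) above the INA arrays (684.6, 693.6 and 719.6), a log2 difference of 0.57 (95% interval -0.01 to 1.15, limma adjusted p 0.86). Such a position above held for 3.41% of all probe sets and one below for 6.73%. AT1G72920 had all DCA arrays below the INA arrays (-0.35, -1.48 to 0.77, limma adjusted p 1). The intervals of the others ran from -1.33 to 0.32 for AT1G72900, from -1.14 to 0.30 for AT1G66090 and from -1.62 to 1.55 for AT3G04210. Differences inside these intervals were not resolved, and they do not show that both acids act alike.

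**Figure D2:**
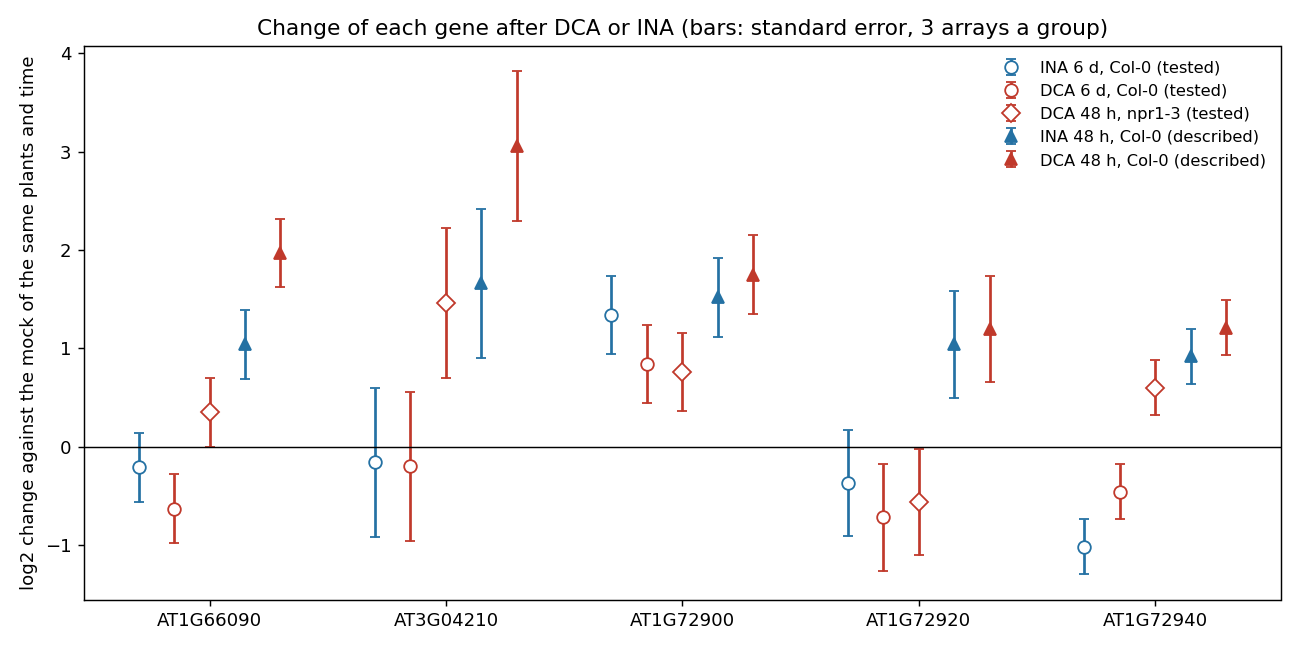
Log2 change of each gene against the mock of the same genotype and time, with bars for the standard error; filled triangles are the described Col-0 changes at 48 h and open symbols the tested changes. The open symbols of 4 genes lie below 0 at 6 d, where AT1G72900 has 1.34 with INA and 0.84 with DCA.

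Replicates of a group differed most for AT3G04210. Its replicate standard deviation on the log2 scale, pooled over the 8 groups, was 1.04, larger than that of 98.4% of the tested probe sets, whose median was 0.35. AT1G72920 followed at 0.73, then AT1G72900 at 0.52, AT1G66090 at 0.45 and AT1G72940 at 0.35. For AT3G04210 replicate 1 was the lowest array in 6 of the 8 groups, all but Col-0 DCA at 48 h and Col-0 mock at 6 d. AT1G72900 went the other way, with replicate 1 the highest array in 6 of the 8 groups. Deviations from the group means of AT3G04210 and AT1G66090 had a correlation of 0.84 over the 24 arrays, and those of AT3G04210 and AT1G72900 one of -0.43. Such deviations share the array and its scaling, so these coefficients are descriptions and carry no p. Replicate numbers marked arrays that deviated together in several pairs of groups, such as DCA and mock in npr1-3, with correlations across probe sets of 0.67, 0.66 and 0.12 for replicates 1, 2 and 3. They did not do so for Col-0 DCA at 48 h, with -0.10, 0.19 and 0.13 against Col-0 mock and -0.13, 0.15 and 0.15 against INA.

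**Figure D3:**
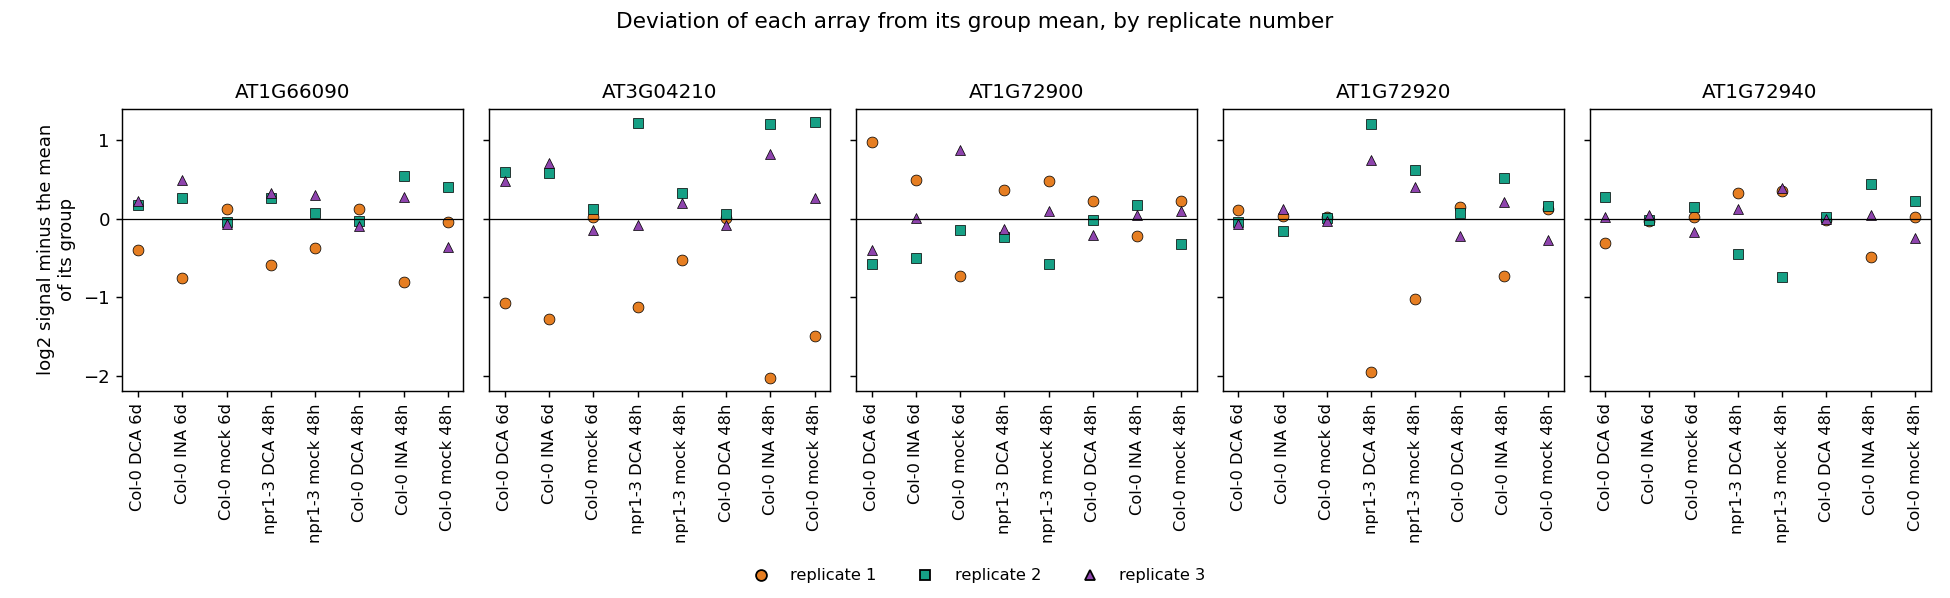
Log2 signal of each array minus the mean of its group, by gene and group, with colours and symbols for the replicate number. Replicate 1 lies lowest in 6 of 8 groups for AT3G04210 and highest in 6 of 8 for AT1G72900.

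Ordered by mean signal, Col-0 DCA at 48 h came first for 4 of the 5 genes. For AT1G66090 the mean was 974.4 ± 75.8 (SD, n = 3) in that group, followed by Col-0 INA at 48 h (549.5 ± 232.3), Col-0 mock at 6 d (418.6 ± 30.7), INA at 6 d (385.3 ± 153.1), DCA at 6 d (274.6 ± 60.4), mock at 48 h (253.5 ± 68.2), npr1-3 DCA (206.6 ± 64.5) and npr1-3 mock (159.4 ± 36.5). Only the first step of that order was larger than the spread of the arrays, and the other 6 neighbouring pairs overlapped. AT3G04210 likewise had 1 clear step, below the Col-0 DCA mean at 48 h of 3413 ± 163, and its next 4 groups all averaged between 1729 and 1855. Its lowest group was npr1-3 mock, at 163.7 ± 46.9.

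The order in AT1G72940 was different, with Col-0 mock at 6 d first (1428 ± 152), Col-0 DCA at 48 h after it (1328 ± 15.1) and npr1-3 mock last (353.3 ± 134.2). In AT1G72900 Col-0 mock at 6 d was last (152.4 ± 87.0), and both elicitor groups at 48 h (713.9 ± 108.4 with DCA and 610.1 ± 82.2 with INA) stood above all other groups with no overlap. AT1G72920 had means from 405.3 ± 51.9 for Col-0 DCA at 48 h to 161.5 ± 119.7 for npr1-3 DCA. Clear steps in its order separated Col-0 mock at 6 d (359.9 ± 7.26) from INA at 6 d (278.7 ± 27.1), and INA from DCA at 6 d (218.1 ± 13.9).

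Across the 8 group means the 4 genes other than AT1G72900 had correlations of log2 signal from 0.80 to 0.92 among them, while those with AT1G72900 were 0.41 to 0.74. The Col-0 groups at 48 h, from which the genes were chosen, are among these means, so the choice favours such likeness. Deviations from the group means of the 4 genes had correlations from -0.27 (AT1G72920 and AT1G72940) to 0.84. Within the run the coefficient was 0.82 for AT1G72920 and AT1G72940, 0.48 for AT1G72900 and AT1G72920, and 0.41 for AT1G72900 and AT1G72940. The highest of all, 0.92, was between AT3G04210 and AT1G72940. Among the 7329 other tested probe sets with 1 gene, the most like AT3G04210 over the 24 arrays were AT2G37540 (Pearson r 0.95) and AT4G30490 (0.94). For AT1G66090 they were AT5G24810 and AT3G49350 (0.89 each), and for AT1G72940 AT5G44720 (0.90) and AT1G69840 (0.89). The most like AT1G72920 were AT5G46780 (0.87) and AT1G21550 (0.86). For AT1G72900 they were AT3G54150 (0.88) and SUFE2 (AT1G67810, 0.87), whose log2 changes with INA at 6 d were 1.66 and 2.20 and between the mock groups, 6 d minus 48 h, -0.56 and -1.29. Averaged over the 5 genes, the highest coefficients were those of AT1G55450, AT5G25930 and AT1G67470 (0.74 each) and of AT5G24810 and AT3G09830 (0.73 each). All these coefficients share the arrays and their scaling.

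Of 30 other Arabidopsis loci listed as encoding TIR domains without leucine-rich repeats, 19 were the 1 gene of a probe set in the annotation used here and 6 reached the signal filter. In the tested comparisons 0 of these 6 were called, neither in npr1-3 with DCA (median log2 change 0.49, against 0.08 over all probe sets) nor at 6 d with DCA (0.25, against -0.04) or INA (0.35, against 0.00). In Col-0 at 48 h 1 of the 6 was called higher with DCA, against 1.98% of all probe sets, and 1 with INA, against 2.37%. Both calls were AT2G20142, named after its values were seen, which averaged 464.8 with DCA, 418.8 with INA and 83.1 with mock. Its log2 changes, as a description, were 2.46 with DCA and 2.28 with INA. The median of the 6 was 0.19 with DCA and 0.61 with INA, against 0.01 over all probe sets for each. The others had changes with DCA of 2.52 (AT2G32140, not called), 0.24 (AT5G44910), 0.13 (AT1G72890), -0.22 (AT4G09420) and -0.28 (AT4G23440). With DCA, 2 of the 6 were called lower in npr1-3 than in Col-0, against 6.33% of all probe sets. These were AT2G20142, averaging 55.9 in npr1-3 and 464.8 in Col-0, and AT2G32140, likewise named after its values were seen, averaging 38.4 in npr1-3 and 513.2 in Col-0. Both npr1-3 means lie below the filter signal of 74.2, so the size of these differences is uncertain. AT2G32140 reached the filter through its Col-0 elicitor groups at 48 h (513.2 with DCA and 287.6 with INA). Its place among the 6 and its call are therefore not free of the group it is compared with. With mock, AT2G20142 and AT2G32140 were also lower in npr1-3, by log2 differences of -1.92 and -1.99, neither called. Over the 6 loci the median difference between npr1-3 and Col-0 with DCA was 0.0, against 0.06 over all probe sets, and 3 of the 6 were positive. AT1G72950, the next locus of the run after AT1G72940, did not reach the filter. Its group means ran from 33.3 in npr1-3 mock to 85.2 ± 57.5 in Col-0 INA at 48 h, with 81.7 ± 16.9 for Col-0 DCA and 55.9 ± 20.0 for Col-0 mock at 48 h.

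Of the 14 genes of the EDS1 module and helper receptors, 3 were the 1 gene of a probe set and 2 were tested, SAG101 and EDS1B (AT3G48080). EDS1B has a near-identical neighbour, EDS1, so its signal may hold both. At 6 d EDS1B was higher with INA, averaging 248.5, against 59.2 with mock (log2 change 2.02, limma adjusted p 0.00568). It was the 1 of the 2 called in a tested comparison, where 1.55% of all probe sets were called higher. Its means in Col-0 mock (59.2 at 6 d, 47.2 at 48 h) and npr1-3 (31.1 with mock, 71.9 with DCA) lie below the filter signal of 74.2. The size of its changes is therefore uncertain. Its highest means were those with INA, 248.5 at 6 d and 288.9 at 48 h. Its passing of the filter, and so this call, are not free of the INA group compared. In Col-0 at 48 h both were called higher with DCA (log2 changes 1.81 for EDS1B and 1.04 for SAG101) and with INA (2.70 and 1.14). The shares of all probe sets called higher at 48 h were 1.98% with DCA and 2.37% with INA. SAG101 had 0.90 with INA at 6 d (limma adjusted p 0.0718) and -0.07 with DCA in npr1-3 (0.976), where EDS1B had 1.14 (0.395). The difference between these genes and the TIR loci was not tested. A list headed salicylic acid synthesis and systemic resistance had 3 measured genes. Of these CaBP22, which encodes a calmodulin-like protein, was called higher with DCA in npr1-3 (log2 change 1.63, limma adjusted p 0.0144), against 0.315% of all probe sets. SARD4 (1.07, limma adjusted p 0.524) and GRX480 (1.27, 0.689) were not called there, and 0 of the 3 were called at 6 d with either elicitor. In Col-0 at 48 h 2 of the 3 were called higher with DCA, CaBP22 (log2 change 2.19) and GRX480 (2.55), and all 3 with INA. CaBP22 was also called higher in mock at 6 d than at 48 h (1.42), against 0.183% of all probe sets. The measured helper receptor gene NRG1.3 did not reach the filter, with signals of 72.8 or below, and no gene of 2 further lists, negative regulators of TIR receptor immunity (6 genes) and reported partners of TIR-NB proteins (3 genes), is listed in the annotation used here.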

How the data were processed

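The deposited values are linear signal intensities, 1 per probe set and array, made by the authors; the submitters' processing notes name GCOS without a version. Per the labels, total RNA of aerial parts was hybridised to ATH1 arrays. The values had been scaled to a common trimmed mean (2% left out at either end) and were not scaled again. All 24 columns matched a sample and 0 were unmapped. A floor of 1 was set before log2 values were computed. The 64 controls were left out, and 13648 probe sets whose mean log2 value reached the 40th percentile (a signal of 74.2) were tested, all 5 genes among them. In limma 3.58.1 (R 4.3.3) 1 mean per group was estimated from the 24 arrays together (eBayes with an intensity trend, 16 residual degrees of freedom), two-sided, with Benjamini-Hochberg adjustment within each comparison and calls at an adjusted p under 0.05. It was checked on simulated data. Fold changes are on the log2 scale of floored signals.

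The genes and lists were chosen with earlier results of these data known. The 4 comparisons tested, DCA against mock in npr1-3 and 3 at 6 d, were not the ones that chose them. DCA and INA against mock at 6 d share their mock arrays with the described mock comparison, whose levels had been noted at the choice. Their p-values and counts are therefore not free of that choice. Genes were named through the supplied platform annotation (1 gene for 13513 probe sets, several for 503, no entry for 8730). The genes most like each one are the 2 with the highest Pearson r over 24 arrays, and 5 for the mean of r. List genes were named where called in a tested comparison (at most 4), and EDS1, PAD4, SAG101 and ADR1 genes wherever measured. AT2G20142, AT2G32140, AT1G72950 and NRG1.3 fall outside this rule and were chosen after their values were seen. Of several probe sets of a gene, the brightest on average was taken. Of the lists kept for checking, 3 reference genes and the guard cell gene FAMA were measured here, and 0 of these 4 were called in the tested comparisons. Of 6 vascular and 3 flower markers on these lists, 0 were the 1 gene of a probe set in the annotation used here, so neither tissue was checked. Replicate numbers paired the arrays (every correlation of deviations over 0.1) in DCA against mock in npr1-3 (0.67, 0.66 and 0.12) and DCA against INA at 6 d (0.75, 0.57 and 0.46), by these correlations and not by the labels. Of the described comparisons they paired INA against mock in Col-0 at 48 h (0.76, 0.78 and 0.29). They also paired npr1-3 against Col-0 with mock (0.36, 0.32 and 0.10 after rounding). Figures used matplotlib 3.10.9.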

Additional observations from a re-analysis of the deposited data

Results flagged for a closer look

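For DCA, 3 of the 5 genes had every treated array below every mock array at 6 d and every treated array above every mock array at 48 h. The difference of the log2 changes, 6 d minus 48 h, was -2.61 for AT1G66090, -1.93 for AT1G72920 and -1.66 for AT1G72940. AT1G72940 met this narrowly at 6 d (1259.5 with DCA against 1266.3 with mock). Over all tested probe sets 1.11% (152) had such opposite moves with DCA, while 2082 had every DCA array above mock at 48 h. For INA the same held for AT1G72920, at -1.42, and AT1G72940, at -1.94, against 0.103% (14) of all probe sets, while 1382 had every INA array above mock at 48 h. The choice favoured the 48 h part of this pattern, so shares over all probe sets are not a like background for the 5 genes. These differences were not tested, because the 48 h changes had chosen the genes. The mock arrays of all 3 genes were higher at 6 d than at 48 h, as given above, and the part of that in the differences was not tested. Groups of 3 arrays were not searched for outlying arrays.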

How the results depend on the processing

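Alternatives were a signal floor of 50, no filter or a filter at the 60th percentile, quantile normalization, eBayes without a trend, a replicate block, a fit to the 6 arrays compared and leaving out each array in turn. After the data had been seen, 2 were added: blocks separate at 48 h and 6 d, and all replicate 1 arrays left out. Of 300 values recomputed for the 4 tested comparisons, 281 kept direction and side of the threshold, 8 passed it in addition, 0 lost it and 11 changed sign. All 11 were uncalled values. For the described comparisons 489 of 495 kept their direction. The cause was not tested in any case.

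Without all replicate 1 arrays, the changes at 6 d became 0.35 (AT3G04210, DCA), -0.01 (AT1G72900, DCA), 0.23 (AT1G66090, INA) and 0.49 (AT3G04210, INA). In npr1-3 1 of the 5 genes was then called, AT3G04210. Leaving out 1 array gave ranges that cross 0 for AT1G72920 in npr1-3 (-1.16 to 0.41), AT3G04210 at 6 d with DCA (-0.49 to 0.34), with INA (-0.51 to 0.48) and for DCA against INA (-0.68 to 0.5, with 0.25 and 0.32 among them), and AT1G66090 with INA at 6 d (-0.46 to 0.17).

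With INA at 6 d, where 0 of the 5 genes were called, 1 was called after quantile normalization and 1 in the 6-array fit (both AT1G72940), and 0 to 1 when 1 array was left out. Replicate numbers shared no clear deviation there (correlations 0.02, 0.14 and 0.34, 3 of 6 arrays closest to their own number). With the replicate block 2 were called, AT1G72900 (limma adjusted p 0.0391) and AT1G72940 (0.0451), and 2 with separate blocks. The block changed no call of the 5 genes elsewhere.

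Counts over all probe sets moved more. For INA at 6 d, 250 became 633 with the block, 854 with separate blocks and 123 to 224 without 1 array. In npr1-3, 44 became 26 without a filter, 25 after quantile normalization, 77 with separate blocks, 0 in the 6-array fit, 172 without the replicate 1 arrays and 9 to 76 without 1 array. For DCA against INA at 6 d, 29 became 77 with the floor of 50, 18 with the stricter filter, 62 with separate blocks, 0 in the 6-array fit, 137 without the replicate 1 arrays and 4 to 109 without 1 array. For DCA at 6 d, 0 became 2 without a filter, 1 without the replicate 1 arrays and 0 to 1 without 1 array. Only 1 array of 1 gene, AT1G72920 in npr1-3 with DCA, had a signal below 74.2, the level of the filter.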
